A study of Mus musculus with 16 samples.

Results

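Liver arrays of A/J and C57BL/6J mice were divided, within each strain, by the number at the end of each sample's title, samples 5-8 against samples 1-4. All 16 samples of the series entered the comparison, 8 of them numbered 5-8 and 8 numbered 1-4, with 4 in each of the groups A/J 5-8, A/J 1-4, C57BL/6J 5-8 and C57BL/6J 1-4. Every group came from livers of male inbred mice on a High Fat High Calorie diet, with an age of 8 weeks in the labels. The methods give an age range that begins at 8 weeks and a feeding period of 8 weeks, so it is unclear whether the label means age at the start or time on the diet. They describe each array sample as RNA pooled from a pair of mice. No source used here says what separates the first 4 numbers from the last 4, so a batch of animals, an RNA preparation, a chip and an order of handling cannot be told apart. The division had been noticed in these values before the fits were run, so the P values below describe its size against the spread within each set and are not independent evidence for it.

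Signal was read on Illumina mouse bead arrays, on which each probe is a single 50-base DNA strand that captures the labelled copy of 1 transcript. A/T pairs hold a strand less firmly than G/C pairs, so the GC content of a probe is a basic property of how it hybridises. The liver functions looked at here include making glucose from amino acids and lactate, breaking down amino acids to urea, oxidising fuel in mitochondria, modifying foreign compounds with cytochromes P450 and conjugating enzymes, folding secreted proteins in the endoplasmic reticulum, and displaying peptides on MHC class I molecules. All differences are log2 signal of samples 5-8 minus samples 1-4, and a gene was called when the limma adjusted P was at most 0.05 and the difference at least 1.5-fold, the thresholds of the study's methods.

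Probes of the same genes are shown first, because the calls fell unevenly over probes of different base composition. The first 30 bases of each 50-base probe are given 5′ to 3′, with G and C in capitals, for 4 genes chosen after their values were seen. Kng1 (chr16:23058220-23082078) encodes kininogen, Lypla1 (chr1:4807823-4846735) an acyl-protein thioesterase, Ndufa5 (chr6:24518662-24527690) a subunit of respiratory complex I and Me1 (chr9:86581363-86695914) the cytosolic malic enzyme that supplies NADPH. The coordinates are those of the genes in RefSeq on GRCm38.p6. The GC content given counts all 50 bases. For Me1 the 30 bases shown have the reverse order, with 14 G or C for the 46% GC probe and 12 for the 54% GC probe.
Kng1, probe of 38% GC: CttCatGGatattaataaCaaaattGCCaa
Kng1, probe of 56% GC: aGCaGtaGtCCCaGCaatGaCCCaGaGGGa
Lypla1, probe of 38% GC: attCCattGaCtGtGtGCtGtaatGtGGGa
Lypla1, probe of 54% GC: aCaCtGCtCtCaCCaCaCaGCaGaaaCtGG
Ndufa5, probe of 38% GC: CaaaGaCtCttGatattCtGaaGCaCtttC
Ndufa5, probe of 58% GC: CtGGtGGGGttGGCGGtGtGCGaCaCtCCa
Me1, probe of 46% GC: GtGCaGaaGCtttCaGGtGtGaGCtaaaaG
Me1, probe of 54% GC: tCCtGaCtttGaaGttGCtttaaaGCCtGt

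The probes of 1 gene often gave different answers. The AT-rich Kng1 probe differed by 0.98 ± 0.0954 (SE; adjusted P = 2.42e-06) between samples 5-8 and 1-4, and the 56% GC probe by -0.01 ± 0.0415 (adjusted P = 0.923). Another Kng1 probe, of 48% GC and the brightest of them, gave 0.00 ± 0.0338 at a mean log2 signal of 14.85, close to the highest value on the arrays (14.97), where a change could hardly show. The 56% GC probe was bright as well, with a mean of 14.13 against 9.46 for the AT-rich probe. The Kng1 probes therefore differ in signal level as well as in GC content, and a rise on the 56% GC probe may also have been limited. For Lypla1 the AT-rich probe gave 1.40 ± 0.104 (adjusted P = 2.55e-07) and the 54% GC probe -0.29 ± 0.157 (adjusted P = 0.233). For Ndufa5 the values were 1.24 ± 0.0973 (adjusted P = 3.93e-07) and -0.06 ± 0.0459 (adjusted P = 0.384). Me1 was of another kind, with a rise on both probes: 0.59 ± 0.188 (adjusted P = 0.0386) at 46% GC and 0.85 ± 0.164 (adjusted P = 0.00141) at 54% GC.

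Over both strains, with strain as a covariate, 142 of 9051 genes were called higher in samples 5-8 (1.57% of those tested) and 1 was called lower (0.011%). All 142 were higher in both strains, with median differences of 0.66 in A/J and 0.90 in C57BL/6J, and 126 of them had the larger difference in C57BL/6J. In 128 of them the lowest of samples 5-8 lay above the highest of samples 1-4 in each strain, against 416 of all 9051 genes (4.6%), and 108 genes lay the other way round (1.19%). On the adjusted P alone the balance was close, 861 genes higher (9.51%) and 762 lower (8.42%), so the excess of rises appeared with the fold threshold. Within A/J, 107 genes were called higher (1.18%) and 2 lower (0.0221%), and within C57BL/6J 225 higher (2.49%) and 13 lower (0.144%). Called higher within both strains were 95 genes (1.05%), and called lower within both by limma was none, nor was any gene lower by 1.5-fold in both at an unadjusted P of 0.05. No gene was called in opposite directions in the 2 strains. The correlation of A/J and C57BL/6J differences across the 9051 genes was 0.632, a description over genes, which are not independent replicates. It was 0.741 across the 2276 genes read by probes of at most 48% GC and 0.326 across the 6775 genes read by probes of at least 50% GC.

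**Figure D1:**
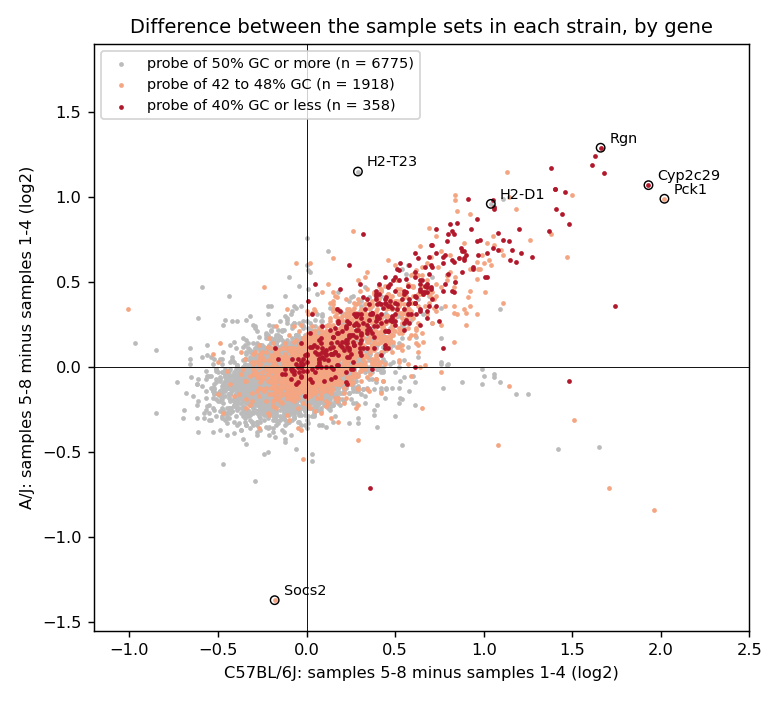
Difference between samples 5-8 and samples 1-4 (log2) in A/J on the vertical axis and in C57BL/6J on the horizontal axis, 1 point per gene, coloured by the GC content of the gene's probe. Genes with AT-rich probes form the arm at the upper right, among them Rgn and Cyp2c29, while H2-D1 lies there with a probe of 52% GC and Socs2 lies low on the A/J axis.

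Of the 142 genes called higher, 139 (97.9%) were read by probes of at most 48% GC, a class that held 25.1% of the genes tested. The median probe GC was 40% for the called genes and 54% for all. In steps of GC content the median difference over both strains was 0.34 for the 112 probes of 36% or less, 0.33 at 38 to 40%, 0.15 at 42 to 44%, 0.03 at 46 to 48%, -0.02 at 50 to 52% and -0.08 for the 546 probes of 62% or more. The share of probes called higher along the same steps was 27.7%, 20.7%, 7.41%, 1.78%, 0.234% and 0%. Both strains followed this order, with medians of 0.30 in A/J and 0.39 in C57BL/6J at 36% or less and of -0.07 and -0.09 at 62% or more. Signal level mattered within the AT-rich class: of probes of 40% GC or less, 2 of 229 with a mean log2 signal under 8.5 were called higher, against 43 of 89 with a mean between 9.5 and 11.

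**Figure D2:**
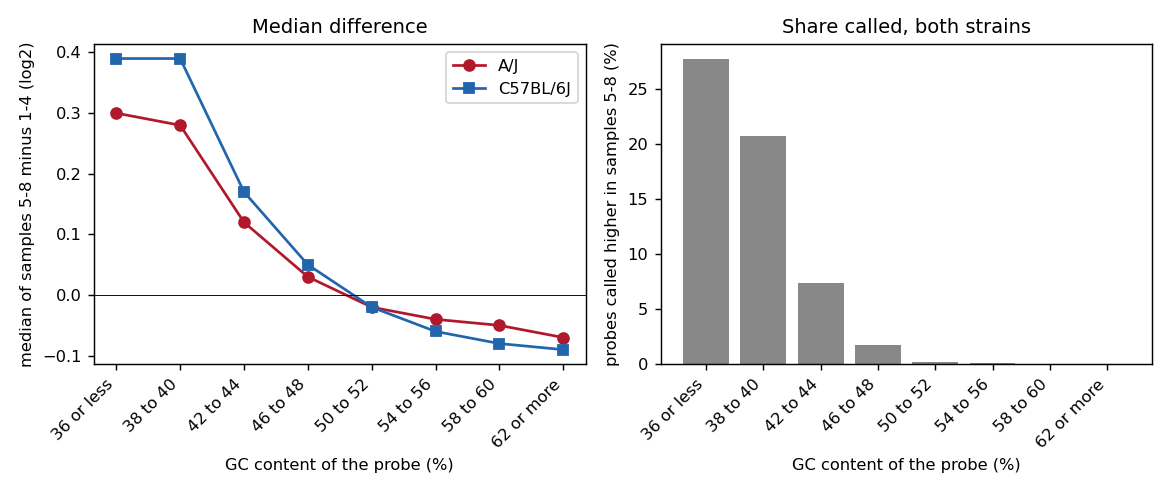
Left, median difference between samples 5-8 and samples 1-4 (log2) for the kept probes in each step of GC content, in A/J and in C57BL/6J. Right, the percentage of probes called higher in samples 5-8 in the fit over both strains. The medians run downward along the steps in both strains, and the share called is 27.7% in the most AT-rich step and 0% in the most GC-rich.

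Strain was the main axis of the 16 arrays (first principal component, 48.1% of the variance), and the sets separated along the second (18.3%) in C57BL/6J and in A/J, between 3.9 and 26.5 in C57BL/6J samples 5-8, -16.1 and -12.1 in C57BL/6J samples 1-4, 4.6 and 11.2 in A/J samples 5-8 and -12.1 and 3.5 in A/J samples 1-4. C57BL/6J sample 7, A/J sample 7 and A/J sample 4, which had high signal of pancreas genes, each scored highest in their group. The second axis therefore does not describe the sets alone. On probes of at least 50% GC the A/J sets overlapped along it, with -3.3 in sample 5 and 5.8 in sample 4. The shift of AT-rich probes was visible in each sample. Averaged over the 509 probes of 40% GC or less and set against the strain's own mean per probe, the signal was 0.20, 0.16, 0.12 and 0.18 in A/J samples 5 to 8, against -0.13, -0.21, -0.23 and -0.08 in A/J samples 1 to 4. In C57BL/6J it was 0.17, 0.15, 0.32 and 0.27 in samples 5 to 8, against -0.29, -0.25, -0.22 and -0.16 in samples 1 to 4. The sets did not overlap in either strain. Over the 982 probes of 60% GC or more the order was turned, between -0.08 and -0.01 in samples 5-8 and between -0.04 and 0.11 in samples 1-4, with overlap in A/J. Because every array had been brought to the same distribution, a higher signal of AT-rich probes and a lower signal of the others cannot be told apart.

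**Figure D3:**
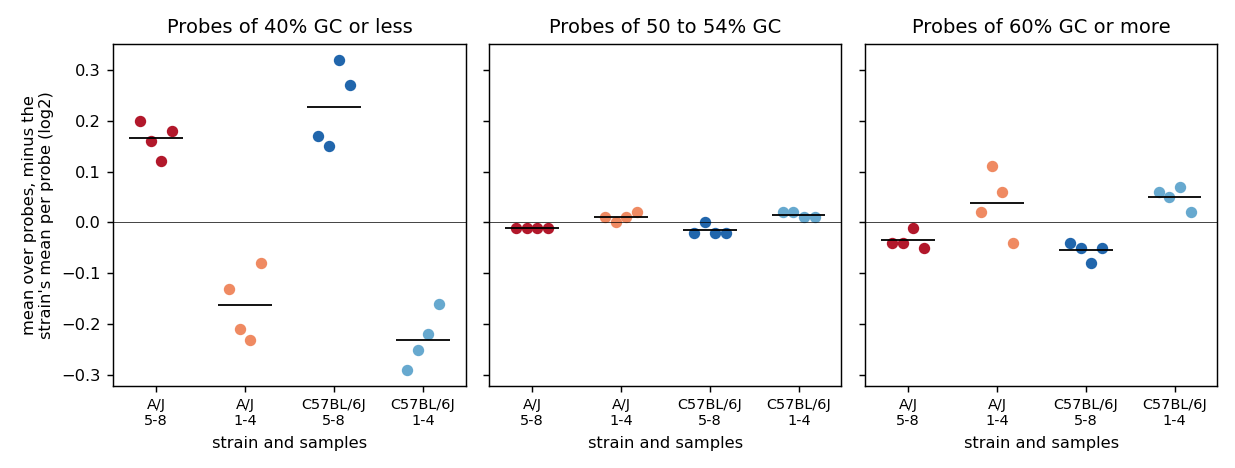
Mean log2 signal of the probes of 40% GC or less, of 50 to 54% GC and of 60% GC or more in each of the 16 samples, after subtracting the strain's mean of each probe. Points are samples and lines are means of 4. For the AT-rich probes all samples 5-8 lie between 0.12 and 0.32 and all samples 1-4 between -0.29 and -0.08.

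A comparison that did not use the calls was made in genes with 1 kept probe of at most 44% GC and another of at least 50%, both with a mean log2 signal of at least 8.5. There were 197 such genes. The comparison was not planned beforehand, and its limits were chosen with these data known. It describes the pairs and is no independent result. The median difference was 0.31 on the AT-rich probe (0.25 in A/J, 0.38 in C57BL/6J) and -0.04 on the other probe of the same genes (-0.02 in A/J, -0.06 in C57BL/6J). The AT-rich probe had the higher difference in 181 of the 197. Among genes with a called rise on any kept probe, 49 further probes of at most 48% GC (43 genes) had a median of 0.16, against 0.76 on the called probes of the same genes, and 4 of the 49 were called, although 28 were brighter than the called probe. The 94 further probes of at least 50% GC (68 genes) had a median of -0.04, against 0.72 on the called probes, and 1 was called. The called probes here were chosen by their values, so a lower value on a further probe is no independent result. Within the 197 genes limma called the AT-rich probe higher in 41, and the GC-rich probe in 0. None of the GC-rich probes was 1.5-fold higher at an unadjusted P of 0.05, and 8 were higher and 15 lower on the adjusted P alone. Probes of a gene can report different transcript ends or isoforms, and that part of the difference was not tested. Fitted on probes of at least 50% GC alone, 5 of 7174 genes were called higher (0.0697%) and 0 lower (0%), with 0 lower at 1.5-fold and an unadjusted P of 0.05 as well. On the adjusted P alone that fit gave 118 genes higher (1.64%) and 544 lower (7.58%), around a median of -0.05.

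Among the strongest rises were enzymes of hepatocytes. Pck1, which encodes the phosphoenolpyruvate carboxykinase that commits carbon to glucose, had log2 signals of 9.5, 9.39, 10.41 and 9.47 in A/J samples 5 to 8, against 9.07, 8.49, 8.21 and 9.05 in A/J samples 1 to 4. C57BL/6J samples 5 to 8 had 11.38, 10.61, 11.78 and 11.08, against 9.15, 9.14, 8.88 and 9.61 in C57BL/6J samples 1 to 4. The sets were separate in both strains, although A/J sample 7 stood well above the other A/J samples. The difference was 1.5 ± 0.223 over both strains (2.83-fold, adjusted P = 0.000127), 0.99 in A/J (adjusted P = 0.058) and 2.02 in C57BL/6J (adjusted P = 0.0012). Its probe has 42% GC. Pck1 was the 1 called of 24 tested genes of gluconeogenesis, glycogen and insulin signalling. That is 4.17%, against 1.57% of all genes and 6.11% of genes on probes of at most 48% GC.

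Tdo2, the enzyme that opens the ring of tryptophan, is expressed mainly in liver. It had 11.51, 11.16, 11.13 and 10.97 in A/J samples 5 to 8, against 10.13, 10.22, 9.59 and 10.27 in A/J samples 1 to 4. The values were 12.13, 11.57, 12.78 and 12.04 in C57BL/6J samples 5 to 8, against 10.08, 10.35, 10.5 and 10.86 in C57BL/6J samples 1 to 4. No sample of 5-8 came within the range of 1-4 in its strain, and the difference was 1.41 ± 0.166 (adjusted P = 1.3e-05). Of the 50 genes of urea synthesis and amino acid breakdown, 6 rose (12%, against 1.57% of all genes) and 0 fell. They were Tdo2, Bhmt, which remethylates homocysteine (1.05 ± 0.258), Slc25a13, the aspartate-glutamate carrier (0.77 ± 0.0767), Kmo of the kynurenine pathway (0.72 ± 0.125), Dmgdh (0.64) and Otc, the urea cycle's ornithine transcarbamylase (0.61). All 6 lay among the 17 members on probes of at most 48% GC, whose median was 0.40, and the 33 members on other probes had a median of -0.06. Bhmt overlapped between the sets in A/J, where the difference was 0.36 (adjusted P = 0.539).

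**Figure D4:**
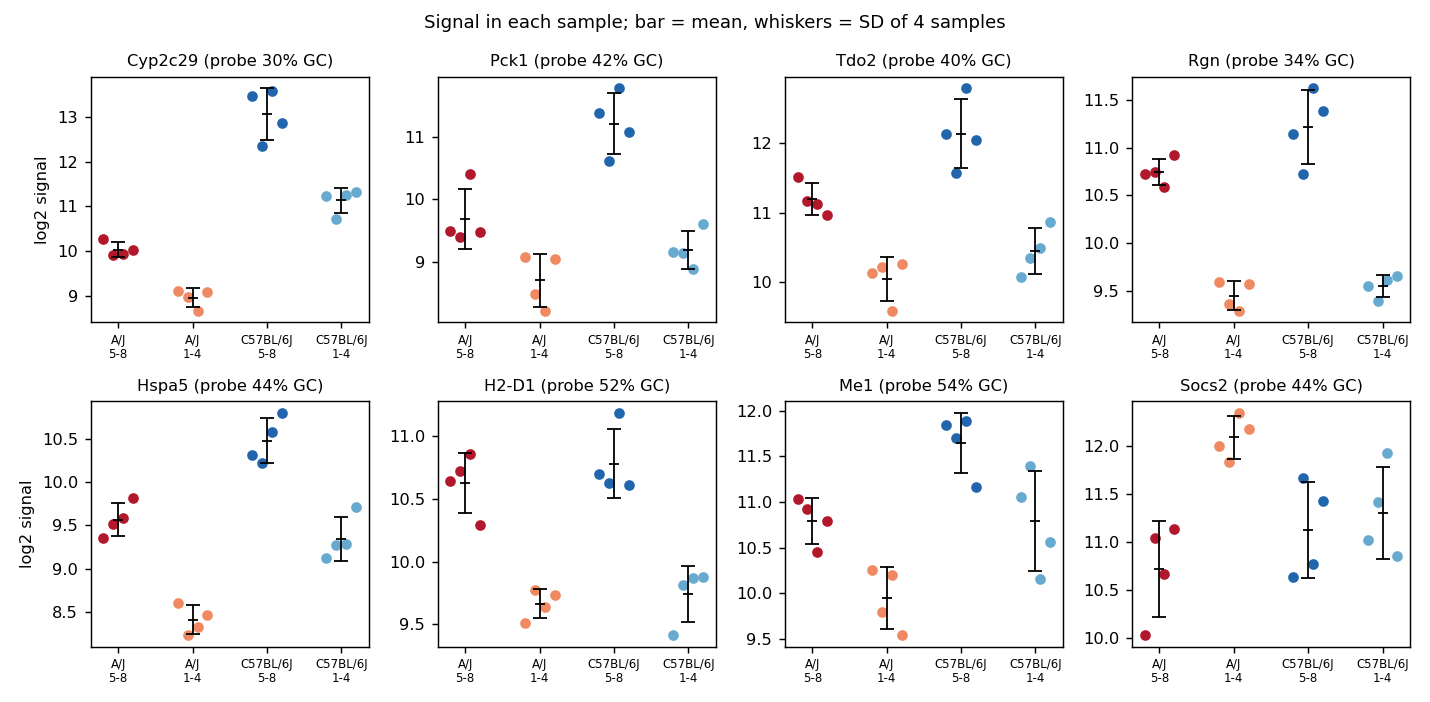
Log2 signal of Cyp2c29, Pck1, Tdo2, Rgn, Hspa5, H2-D1, Me1 (its probe of 54% GC) and Socs2 in each sample, with the mean and SD of 4 samples per group. In the panels of Cyp2c29, Pck1, Tdo2, Rgn, Hspa5 and H2-D1 the samples 5-8 lie above the samples 1-4 of the same strain, and Socs2 is lower in A/J samples 5-8.

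Among enzymes that act on foreign compounds, the cytochrome P450 gene Cyp2c29 had 10.27, 9.91, 9.93 and 10.02 in A/J samples 5 to 8, against 9.12, 8.98, 8.66 and 9.09 in A/J samples 1 to 4. In C57BL/6J it had 13.47, 12.35, 13.59 and 12.86 in samples 5 to 8, against 11.24, 10.73, 11.25 and 11.33 in samples 1 to 4. The sets were apart in both strains, and the rise was 1.07 in A/J (adjusted P = 0.00113) and 1.93 in C57BL/6J (adjusted P = 0.00199). It was the 1 called gene of 42 in the P450 and oxidation list (2.38%, against 1.57% of all genes). Its probe has 30% GC, and members of the Cyp2c family share sequence that a probe may capture in common. Of the 35 conjugation enzymes 3 rose (8.57%, against 1.57% of all genes and 6.11% of genes on probes of at most 48% GC, where all 3 lay), Ugt1a6a (1.26 ± 0.132), Ugt2b34 (0.93 ± 0.104) and Ugt2b1 (0.62 ± 0.118), glucuronosyltransferases whose family members also overlap in sequence. Another Ugt1a6a probe, of 52% GC, gave -0.42 ± 0.218 (adjusted P = 0.207), and one of 54% GC gave -0.21 ± 0.174. Of 21 NRF2 targets, which defend against oxidants, Gclc (0.89 ± 0.107), Txn1 (0.73 ± 0.135) and Me1 rose (14.3%, against 1.57% of all genes), and none fell. These 3 lay among the 7 members on probes of at most 48% GC, and the other 14 had a median of -0.03. Rgn, a calcium-binding lactonase of hepatocytes, was 10.72, 10.74, 10.59 and 10.92 in A/J samples 5 to 8, against 9.59, 9.36, 9.29 and 9.57 in A/J samples 1 to 4, and rose by 1.66 in C57BL/6J as well (probe of 34% GC, 1.48 ± 0.108 over both strains).

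Mitochondrial fuel oxidation held 9 called respiratory chain subunits of 71 (12.7%, against 1.57% of all genes), namely Atp5a1 (1.17 ± 0.104), Ndufb4 (1.16 ± 0.147), Ndufb9 (1.05 ± 0.114), Cox7b (0.89 ± 0.126), Ndufb5 (0.88), Atp5e (0.83), Sdhd (0.78), Cycs (0.78) and Ndufb2 (0.62). They belong to complexes I, II, IV and V and cytochrome c, and 8 of the 9 sat on probes of at most 48% GC. The 15 members on such probes had a median of 0.78, and the 56 members on other probes -0.08. In the fit on probes of at least 50% GC, 10 of 57 subunits were lower on the adjusted P alone (17.5%, against 7.58% of all genes in that fit), among them Atp5pb (-0.32) and Atp5c1 (-0.24), and 1, Ndufb2, was higher (0.62 ± 0.0766, adjusted P = 0.000351). Subunits of the same complexes thus lay on both sides of 0 according to the probe class. Of 34 genes of glycolysis and the citric acid cycle 4 rose (11.8%, against 1.57% of all genes): Dld (1.24 ± 0.112) and Pdhb (0.76 ± 0.0763) of the pyruvate dehydrogenase complex, Idh2 (0.83 ± 0.129) and Sdhd. All 4 were among the 9 members on probes of at most 48% GC, a class in which 6.11% of all genes were called.

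Endoplasmic reticulum chaperones and cytosolic chaperones were represented by a few members. Hspa5, the main chaperone of the endoplasmic reticulum, had 9.35, 9.51, 9.58 and 9.81 in A/J samples 5 to 8, against 8.61, 8.23, 8.33 and 8.47 in A/J samples 1 to 4. C57BL/6J samples 5 to 8 had 10.31, 10.22, 10.58 and 10.80, against 9.12, 9.27, 9.28 and 9.71 in C57BL/6J samples 1 to 4. The rise was nearly the same size in both, 1.15 ± 0.108 in A/J and 1.13 ± 0.153 in C57BL/6J, with no overlap. Hspa5 and Selenok (0.77 ± 0.0818) were the called members of 43 XBP1s and ATF6 targets. That is 4.65%, against 1.57% of all genes and 6.11% of genes on probes of at most 48% GC. Both lay among the 16 members on such probes (44% and 36% GC), whose median was 0.24, and the 27 members on probes of at least 50% GC had a median of -0.08. Of 28 heat shock chaperones, Hsp90aa1 (0.78 ± 0.127), Cct5 (0.75 ± 0.114) and Hspe1 (0.74 ± 0.11) rose (10.7%, against 1.57% of all genes), and none was called within A/J. They lay among the 14 members on probes of at most 48% GC, with a median of 0.33, and the 14 others had 0 called and a median of -0.04. None of the 27 tested genes of the PERK, ATF4 and CHOP arm was called, and on probes of at least 50% GC 4 of its 20 members were lower on the adjusted P alone, including the tRNA synthetase genes Aars (-0.38) and Sars (-0.34), which is 20% against 7.58%.

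Lipid groups differed in their counts. Of 18 genes of cholesterol synthesis and SREBP2 control, Idi1, an isomerase of the sterol pathway (0.96 ± 0.132), and Insig1, which holds SREBP2 in the endoplasmic reticulum (0.91 ± 0.126), rose (11.1%, against 1.57% of all genes), and the list median was -0.07. Neither of the other Insig1 probes followed, with -0.25 ± 0.148 at 52% GC (adjusted P = 0.285) and -0.13 ± 0.151 at 46% GC (adjusted P = 0.605). Me1 was also the 1 called gene of 24 in lipogenesis and triglyceride formation (4.17%, against 1.57% of all genes). Its 54% GC probe read 11.03, 10.92, 10.45 and 10.79 in A/J samples 5 to 8, against 10.26, 9.80, 10.20 and 9.54 in A/J samples 1 to 4, and 11.84, 11.70, 11.89 and 11.17 in C57BL/6J samples 5 to 8, against 11.06, 11.40, 10.16 and 10.56 in samples 1 to 4. The sets were apart in A/J and overlapped in C57BL/6J, with nearly equal differences of 0.85 and 0.86. None of 19 apolipoprotein and lipoprotein assembly genes, 29 PPARalpha targets or 17 lipid droplet genes was called by limma in the fit over both strains, with medians of -0.06, 0.02 and -0.02 against -0.03 for all genes. Baat, which conjugates bile acids with amino acids, rose by 0.66 ± 0.106 on a probe of 42% GC. It was the 1 called of 23 bile acid genes. That is 4.35%, against 1.57% of all genes and 6.11% of genes on probes of at most 48% GC.

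In the MHC list 2 of 17 genes were called (11.8%, against 1.57% of all genes), both on probes of at least 50% GC. Those probes had 52% and 56% GC, near the median of 54% for all genes. H2-D1, a classical class I heavy chain, had 10.64, 10.72, 10.86 and 10.29 in A/J samples 5 to 8, against 9.51, 9.77, 9.64 and 9.73 in A/J samples 1 to 4. The values were 10.70, 10.63, 11.19 and 10.61 in C57BL/6J samples 5 to 8, against 9.41, 9.81, 9.87 and 9.88 in C57BL/6J samples 1 to 4. The sets were separate in both strains, with a difference of 1.00 ± 0.0975 (2-fold, adjusted P = 2.43e-06; probe of 52% GC). H2-T23, a nonclassical class I gene (probe of 56% GC), had 12.34, 12.24, 12.66 and 12.07 in A/J samples 5 to 8, against 11.18, 11.24, 11.41 and 10.87 in A/J samples 1 to 4. It rose by 1.15 ± 0.137 in A/J (adjusted P = 0.00159), and in C57BL/6J the difference was 0.29 ± 0.0951 (adjusted P = 0.0796). A dimmer H2-T23 probe, of 48% GC, gave 0.21 ± 0.0526 (adjusted P = 0.00857), with 0.15 in A/J and 0.28 in C57BL/6J, so the large A/J value was on 1 of the gene's probes. H2-K1, another classical heavy chain, had 0.18 ± 0.0774 (adjusted P = 0.124) on its brighter probe of 56% GC and 0.66 ± 0.125 (adjusted P = 0.0013) on a probe of 38% GC. H2-Q7 gave 0.56 ± 0.0875 in the fit on probes of at least 50% GC (adjusted P = 0.00293), just under 1.5-fold. In that fit 3 of 13 MHC genes were higher on the adjusted P alone (23.1%, against 1.64% of all genes) and 0 lower, with a median of 0.29 (0.44 in A/J and 0.11 in C57BL/6J), against -0.05 for all genes. Class I genes are near copies of each other and differ between the strains, so a probe may read several of them at once.

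Outside the MHC list, with each gene read from its brightest probe of at least 50% GC, Ndufb2 was the 1 gene both called and apart in both strains. Dimmer probes of at least 50% GC were called for other genes as well, among them Eef1b2 (0.86 ± 0.0949, 50% GC) and Chmp2a (0.59 ± 0.059, 52% GC). The brightest probes of these genes gave 0.41 and 0.11 and were not called. In the same fit on probes of at least 50% GC, Becn1, a starter of autophagy (0.58 ± 0.0621), Gorasp2, a Golgi stacking protein (0.57 ± 0.061), the carboxylesterase gene Ces1e (0.56 ± 0.0972) and the noncoding RNA gene Tug1 (0.52 ± 0.0722) passed the adjusted P and stayed under 1.5-fold. Cyp2c50, another P450 gene, was called there at 0.73 (adjusted P = 0.0225), with 0.19 in A/J and 1.27 in C57BL/6J, while its brighter probe, of 46% GC, gave 0.17 ± 0.0651 (adjusted P = 0.0896 over all kept probes).

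Liver zones, lysosomes and cytosolic ribosomes had 2 called members each. Of 14 genes typical of hepatocytes around the central vein, Glul, which makes glutamine from ammonia (1.09 ± 0.108), and Rgn rose (14.3%, against 1.57% of all genes). Of 12 genes typical of the portal side, Pck1 and Pigr, the receptor that carries IgA into bile (0.64), rose (16.7%), so called members came from both ends of the lobule. All of these calls were on probes of at most 48% GC. On other probes the 8 central and 8 portal members had 0 called, with medians of -0.06 and -0.02. Among 30 lysosome and autophagy genes Ctss, a cathepsin (0.85 ± 0.0775), and Npc2, which hands cholesterol out of the lysosome (0.67), rose, on probes of 40% and 42% GC. Their share was 6.67%, against 1.57% of all genes and 6.11% of genes on probes of at most 48% GC. Of 54 cytosolic ribosomal proteins Rps3a1 (0.91 ± 0.0794) and Rps9 (0.70) rose (3.7%, below the 6.11% of all genes on probes of at most 48% GC), on probes of 44% and 40% GC, and an Rps9 probe of 60% GC gave -0.10. Aadac, an esterase of the endoplasmic reticulum, belonged to the largest rises at 1.27 ± 0.0972, on a probe of 40% GC.

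Of the 47 lists, 26 held at least 1 gene called higher, 2 of them on a probe of at least 50% GC, and 15 lists of at least 10 tested members held none, mitochondrial ribosomal proteins, interferon-induced genes, immediate early genes, iron and copper genes and male-biased liver genes among them. In 31 lists with at least 5 members in each probe class, the median on probes of at most 48% GC was above 0 in 28, while the median on probes of at least 50% GC was below 0 in 26. For all genes the 2 medians were 0.08 and -0.05. The lists were chosen with earlier results of these data known, and no set test was made.

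**Figure D5:**
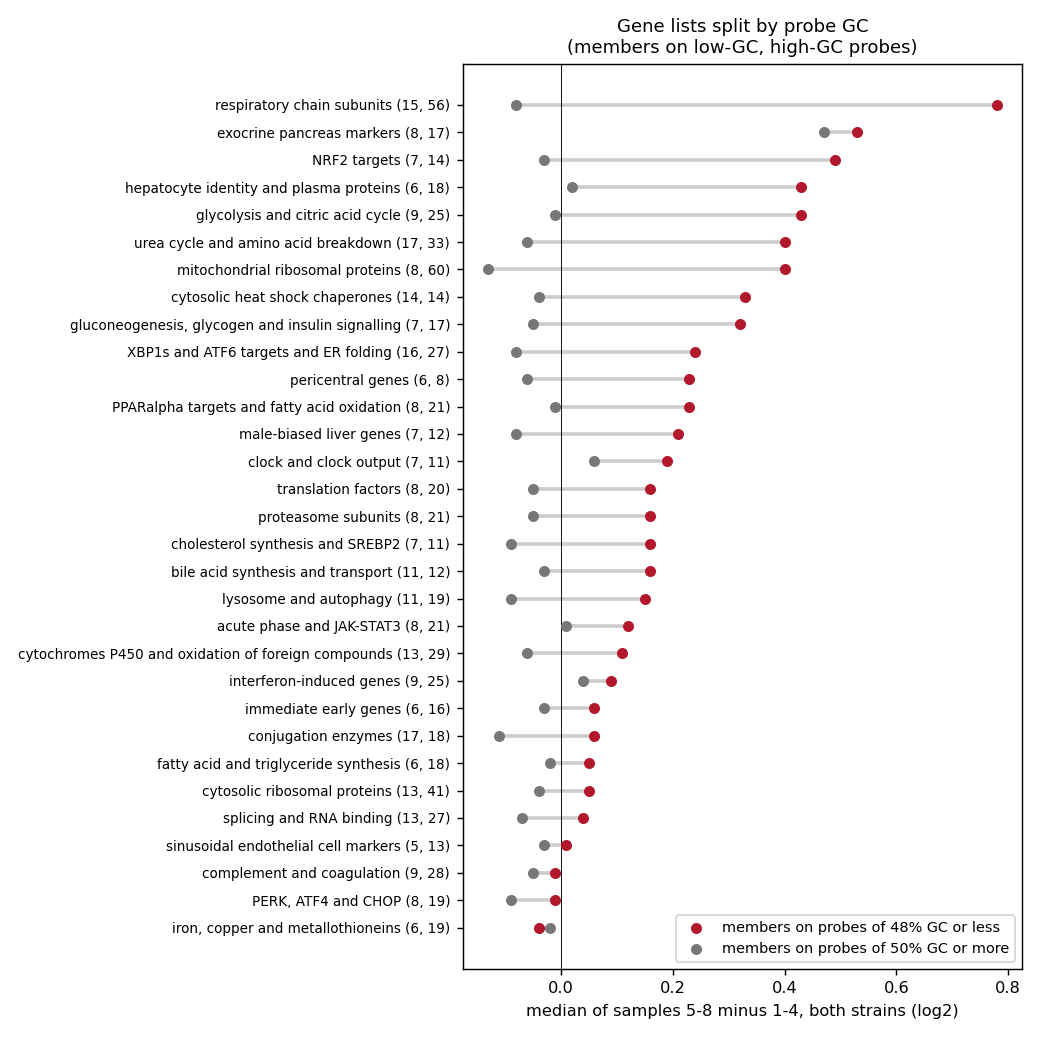
Median difference between samples 5-8 and samples 1-4 over both strains (log2) for the tested members of each list on probes of at most 48% GC and on probes of at least 50% GC, for the 31 lists with at least 5 members in each class (member counts in parentheses). The respiratory chain subunits stand at 0.78 and -0.08, the widest gap in the plot.

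Small falls were found in the fit on probes of at least 50% GC. Of 61 mitochondrial ribosomal proteins in that fit, which build the ribosome that translates mitochondrial mRNA, 15 were lower on the adjusted P alone (24.6%, against 7.58% of all genes) and 2 higher (3.28%, against 1.64%). Mrpl55 was lower by 0.37, Mrpl2 by 0.33 and Mrps34 by 0.30 on the log2 scale, with the sign shared by both strains, and the list median was -0.13 against -0.05. On probes of at most 48% GC the list's 8 members had a median of 0.40, and a Mrpl13 probe of 36% GC was called higher (1.03 ± 0.083), with -0.01 on the brighter probe of 58% GC. With a curve on probe GC removed from each array the list median was -0.08, against -0.01 for all genes. Gamt, the methyltransferase that makes creatine, fell in C57BL/6J by 0.85 on the log2 scale (adjusted P = 0.00405), with -0.27 in A/J (adjusted P = 0.263). It led the 13 falls in C57BL/6J, which also held Eif3d, Cln3, Oplah, Decr1 and Cxcl1. Without C57BL/6J sample 7, the sample with the highest pancreas signal, 6 genes were called lower in C57BL/6J, and Cln3 (-0.57), Oplah (-0.53) and Decr1 (-0.51) were under 1.5-fold. Without C57BL/6J sample 6 there were 41. Camk2b fell in A/J by 0.67 on the log2 scale (adjusted P = 0.0129).

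Socs2, the growth hormone-induced inhibitor of JAK-STAT signalling, was the 1 gene called lower over both strains. It had 10.03, 11.04, 10.67 and 11.14 in A/J samples 5 to 8, against 12, 11.84, 12.35 and 12.18 in A/J samples 1 to 4. In C57BL/6J it had 10.64, 11.67, 10.77 and 11.43 in samples 5 to 8, against 11.02, 11.42, 11.93 and 10.86 in samples 1 to 4. The A/J sets were separate and the C57BL/6J sets overlapped. The difference was -1.37 ± 0.215 in A/J (adjusted P = 0.00593), -0.18 ± 0.278 in C57BL/6J (adjusted P = 0.733) and -0.78 ± 0.238 over both (adjusted P = 0.032). Its probe has 44% GC, a class in which the median was above 0. The call of Socs2 over both strains was lost in 8 of 16 fits that left out 1 sample each (A/J samples 1, 3, 4, 5 and 7 and C57BL/6J samples 3, 5 and 7), with adjusted P between 0.011 and 0.0695 over the 16. It was also lost with no filter on dim probes (adjusted P = 0.0616), with a trended and robust prior (adjusted P = 0.0606) and without the 3 samples of high pancreas signal (adjusted P = 0.149). Jak1, a tyrosine kinase of cytokine receptors, rose by 1.01 ± 0.0726 on a probe of 38% GC.

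The genes at the centre of the study differed by less. Xbp1, the transcription factor of the unfolded protein response, had a difference of -0.06 ± 0.0998 (adjusted P = 0.759), and whether its probe tells the spliced from the unspliced mRNA was not tested. Socs3 had 0.17 in A/J (adjusted P = 0.604) and -0.36 in C57BL/6J (adjusted P = 0.125), -0.10 ± 0.117 over both (adjusted P = 0.635). Gapdh had -0.01 ± 0.038 (adjusted P = 0.875). Actb, the cytoskeletal actin often used as a reference, had 5 kept probes, and they spread from -0.34 ± 0.197 to 0.80 ± 0.207. Those of 52% and 54% GC were called higher (0.80, adjusted P = 0.0118, and 0.75, adjusted P = 0.0142), and the brightest, of 62% GC, gave -0.16 ± 0.0805 (adjusted P = 0.191).

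Markers of other cell types were read beside these results. The liver was plain in every sample, since the 24 tested hepatocyte genes averaged between 13.66 and 13.80 in samples 5-8 and between 13.53 and 13.62 in samples 1-4. The 6 of these genes on probes of at most 48% GC averaged 12.93 to 13.29 in samples 5-8 and 12.34 to 12.66 in samples 1-4, whereas the 18 on other probes averaged 13.90 to 13.99 and 13.87 to 13.97. The 25 exocrine pancreas genes averaged 11.89 in C57BL/6J sample 7 and 10.07 in A/J sample 7, of samples 5-8, and 10.26 in A/J sample 4, of samples 1-4, against 8.05 to 8.58 in the other 13. Their median difference was 1.06 in C57BL/6J and -0.09 in A/J. Without these 3 samples 157 genes were called higher and 0 lower, and 114 were called higher within both strains. The summed signal of the 14 macrophage markers overlapped between the sets in both strains, 19000 to 26400 in A/J samples 5-8 against 19300 to 22400 in A/J samples 1-4, and 20100 to 25100 in C57BL/6J samples 5-8 against 23100 to 27300 in C57BL/6J samples 1-4. Of these markers 1 was called (7.14%, against 1.57% of all genes), Adgre1 (0.67 ± 0.0975, probe of 40% GC). In whole liver, fewer cells of a type and less RNA per cell cannot be told apart.

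With the GC curve removed from each array, 50 genes were called higher (0.552%) and 6 lower (0.0663%). Of the 50, 49 were among the 142, and 46 had probes of at most 48% GC. Pck1 (1.24), Ugt1a6a (1.20), Tdo2 (1.09), H2-D1 (1.02), Rgn (0.98), Hspa5 (0.96) and Cyp2c29 (0.89) were among them, and 7 respiratory chain subunits. H2-T23 (0.78) and H2-Q7 (0.62) were also called. The curve was drawn over bright and dim probes together. Among probes of 40% GC or less the median difference before its removal was 0.20 at a mean log2 signal under 8.5 and 0.58 between 9.5 and 11. The curve can therefore take too little from bright AT-rich probes, so a call that stayed does not set a gene's rise apart from its probe's GC. Of the 6 falls Socs2 (-0.96) was bright, and the other 5 were probes with a mean log2 signal under 8.2, near the lower end of the kept range, from which the curve was subtracted as from bright ones.

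The difference between the sets did not pass the test of differing between strains for any gene with a symbol. In the limma interaction contrast the smallest adjusted P among genes was 0.0976. Of the 9051 genes tested, 834 had an unadjusted P of 0.05 or less, above the 1 in 20 that chance gives for independent genes. The lack of calls therefore does not show that the strains were alike. In the same contrast 1 probe without a gene symbol passed (-1.17 ± 0.163, adjusted P = 0.03). That probe, of 40% GC, had 8.27, 8.35, 8.29 and 8.37 in A/J samples 5 to 8, against 7.99, 7.87, 7.91 and 7.98 in A/J samples 1 to 4. C57BL/6J samples 5 to 8 had 10.94, 10.91, 11.44 and 11.02, against 9.25, 9.42, 9.59 and 9.82 in C57BL/6J samples 1 to 4, so it was higher in samples 5-8 of both strains. Its A/J values lay near the lowest kept mean (8.00), where a change shows less. A truly larger rise in C57BL/6J cannot be told apart from that limit. The sets were balanced over the strains, and the comparison of A/J with C57BL/6J called 484 genes with the set as a covariate (5.35%) and 479 without it, all 479 shared.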

How the data were processed

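RNA from 16 liver samples of A/J and C57BL/6J mice on the High Fat High Calorie diet was hybridised to Illumina mouse arrays by the authors. The deposited log2 values, made with BeadStudio and lumi per the labels, had been quantile-normalised, since the sorted columns differed by at most 0.00086; whether a plain log2 or a variance-stabilising transform was used is not stated for these values. Array number, not sequencing depth, limits precision. Samples were grouped by strain and by the number in the title.

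The 13060 probes with the highest mean, of 25697, were kept, as many as in the methods. Symbols came from the platform table and RefSeq (23978 probes with 1 symbol, 1719 with none), and a gene was read from its kept probe with the highest mean. Probe bases and GC content were decoded from the deposited nuID, a coded form of the sequence (type other in the files, with 0 checksum errors). The models were run in limma 3.58.1 (R 4.3.3), with moderated statistics and Benjamini-Hochberg adjustment over the kept probes: over all 16 samples with strain as a covariate, within each strain (8 samples), and as an interaction of 4 groups. The fits were tested on simulated data with independent noise for each probe and array. Those data held no signal shared by AT-rich probes, so the test does not cover that feature of the arrays. P values measure the spread between these pooled samples, which may be technical.

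The division of the samples, the members and the 47 gene lists were chosen with earlier results of these data known. Named genes were the 12 largest rises and falls among genes called over both strains whose sets did not overlap in either strain, up to 4 called members per list, the 5 largest interaction differences past an adjusted P of 0.05, and Xbp1, Socs3, Actb and Gapdh; others were chosen after their values were seen. Alternatives were other filters, scalings, fits, thresholds and left-out samples, and, chosen after seeing the data, restriction to probes of at least 50% GC, a loess curve on probe GC (span 0.5) removed from each array, and the kept probe of highest GC for each gene. The comparison of AT-rich and GC-rich probes of the same genes was not planned either. Same-numbered samples of the 2 strains were not paired by the data: 4 of 8 residual correlations were over 0.1, in a range of -0.19 to 0.45. Arrays correlated between 0.9655 within a strain at the lowest and 0.9943 at the highest, so none was a copy of another.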

Additional observations from a re-analysis of the deposited data

Results flagged for a closer look

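Among 224 sets of 4 samples of the named genes, 12 held a sample far from the other 3 by Dixon's test, near the 1 in 20 that chance gives. In A/J these were Pck1 in sample 7 (10.41, others 9.39 to 9.5), Bhmt in sample 5 (12.69, others 12.54 to 12.57) and in sample 3 (11.33, others 12.44 to 12.64), Gng5 in sample 3 (9.51, others 9.94 to 10), Rps9 in sample 3 (12.19, others 12.59 to 12.65) and Pigr in sample 1 (12.80, others 12.56 to 12.60). In C57BL/6J they were H2-D1 in sample 7 (11.19, others 10.61 to 10.70) and in sample 1 (9.41, others 9.81 to 9.88), Psmd6 in sample 7 (10.05, others 9.40 to 9.51), Jak1 in sample 5 (9.66, others 10.02 to 10.06), Actb in sample 6 (13.63, others 13.40 to 13.43) and Cyp2c29 in sample 2 (10.73, others 11.24 to 11.33). Sample 3 of A/J gave 3 of the 12, each a low value, and C57BL/6J sample 7 gave 2, both high.

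A probe without a gene symbol differed between the strains in its difference between samples 5-8 and samples 1-4, by -1.17 (A/J minus C57BL/6J), with 0.38 in A/J and 1.56 in C57BL/6J. Its A/J signal lay near the lowest kept mean (8.00), where a change shows less.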

How the results depend on the processing

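As reported, 143 genes were called over both strains, 109 in A/J, 238 in C57BL/6J and 95 alike in both, and 1 probe passed for the difference between the strains. With a 2-fold threshold the 4 gene counts were 26, 15, 50 and 12, and with no fold threshold 1623, 378, 1148 and 305. On probes of at least 50% GC they were 5, 4, 26 and 1, with 0 probes for the difference between the strains, and after the loess on probe GC 56, 38, 104 and 26; both settings were chosen after seeing the data. Lypla1 (-0.29), Ugt1a6a (-0.42), Insig1 (-0.25), Pdhb (-0.08), Txn1 (-0.03), Rps9 (-0.10) and Pabpc1 (-0.05) were below 0 on probes of at least 50% GC, which reads another probe of the gene by construction; none of the 7 passed the threshold, and the Txn1 probe (mean log2 signal 8.06) and Pabpc1 probes (8.15 and 8.13) were too near the lowest kept mean (8.00) to show a change. With the kept probe of highest GC the same 7 were negative, with -0.21 for Ugt1a6a and -0.04 for Pabpc1. The count for the difference between the strains was 2 with no filter on dim probes, 3 with a trended and robust prior, and 0 without A/J samples 4 and 7 and C57BL/6J sample 7; the cause was not tested. Leaving out 1 sample at a time gave 131 to 164 genes over both strains, 85 to 126 in A/J, 189 to 297 in C57BL/6J, 76 to 107 alike, and 0 to 3 probes for the difference. Without C57BL/6J sample 6 the genes lower in C57BL/6J numbered 41, against 13 with it, and without C57BL/6J sample 7 they numbered 6. With the sample number as a random block 143 genes were called, and no pairing of the samples is given by the labels beyond the number itself. All other settings for these counts (filters, array centring, cyclic loess, array weights, pancreas covariate, 4-group fit) stayed within 1.5 times. The number of arrays, 4 a group, limits the precision.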
